A study of Mus musculus with 16 samples.

Results

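Cluster 16 of the deposited cell table, which the authors annotated as myeloid cells, held 119 of 18203 spinal cord cells (0.654%). Its members were taken as every cell whose deposited annotation begins with that cluster number. The authors' earlier cluster number was the same for all 119 cells. Mice were perfused, the cervical cord at a dorsal column lesion was dissociated, and single-cell 3′ libraries were made with 10x Genomics Chromium. The deposited values are counts of unique molecular identifiers (UMIs), each of which stands for 1 captured RNA molecule. Each of the 16 libraries stands for 1 mouse. The mice were 8 to 10 weeks old, and all of them carried GFAPcreERT2, a tamoxifen-inducible Cre whose GFAP promoter is meant to act in astrocytes. Ryk+/+,GFAPcreERT2 mice are written WT. Rykfl/fl,GFAPcreERT2 mice, in which Ryk (a Wnt receptor) is conditionally deleted, are written cKO. Each genotype has uninjured mice (labelled sham) and mice killed 1, 7 or 14 days (d) past the injury, 2 for every one of 8 conditions. The astrocyte Cre leaves the blood lineage outside the intended deletion, and whether Ryk was deleted in cells of Cluster 16 was not tested.

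Neutrophils are short-lived granulocytes that form in the bone marrow, circulate in blood and enter an injured spinal cord among the earliest blood cells. They store proteins in granules that are filled in sequence as the cell matures, first primary, then secondary (specific), then tertiary (gelatinase) granules, and mature cells switch from making granule proteins to carrying receptors for chemokines and microbial products. S100a8 and S100a9 encode the paired calcium-binding subunits of calprotectin, the most abundant cytosolic protein of these cells, while Retnlg and Lcn2 encode a resistin-like protein and an iron-siderophore-binding granule protein.

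The 15 mice with at least 50 cells had 536263 to 9008729 UMIs (median 3032957). WT 1 d replicate 2 was left with 1 cell of 266 UMIs and entered only an alternative with no minimum of cells, so WT at 1 d is otherwise 1 mouse. Replicate 1 of WT 1 d, WT 7 d, cKO 1 d and cKO 7 d stood apart. These 4 libraries had median depths of 414 to 548 UMIs per cell, against 1041 to 3637 in the other mice. They also shared cell barcodes: each of their 6 pairs had 28 to 115 barcodes in common, against at most 4 in any other pair. Summed over these pairs this gives 341, in which a barcode found in several pairs counts once for each pair. In the whole table, 166 of 17937 distinct barcodes occurred in more than 1 library. Of the 31 Cluster 16 cells in the 4 libraries, 0 had a barcode found in another of them. Comparisons of shares are given with and without them. The gene tests were not fitted without all 4, which would leave 1 mouse at 1 d, and are given with each mouse left out. For 6 mice, cell names and sample titles disagree on the condition, all of them replicate 2: the title WT uninjured has cKO uninjured in its cell names, the title cKO uninjured has WT 7 d, and likewise WT 1 d has WT 14 d, WT 7 d has WT 1 d, WT 14 d has cKO 14 d, and cKO 14 d has cKO 7 d. The titles were followed. No doublets were removed here, and the study's methods mention no doublet removal.

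Cells of Cluster 16 were found in 13 of the 16 mice and were spread unevenly over them. Among uninjured mice there were 1 of 980 cells (0.102%, 95% exact Clopper-Pearson interval 0.00258 to 0.567%) and 23 of 1384 (1.66%, 1.06 to 2.48%) in WT replicates 1 and 2. The uninjured cKO mice had 1 of 208 (0.481%, 0.0122 to 2.65%) and 0 of 1238, which allows a share of up to 0.242%. At 1 d, there were 12 of 1025 cells (1.17%, 0.606 to 2.04%) in the WT mouse, and 10 of 1223 (0.818%, 0.393 to 1.5%) and 21 of 1845 (1.14%, 0.706 to 1.73%) in cKO. The 3 mice at 1 d thus lay close together by cluster, but not by markers: 1, 2 and 10 of these cells had at least 3 of S100a8, S100a9, Retnlg and Lcn2. At 7 d, WT had 2 of 1203 (0.166%, 0.0201 to 0.599%) and 0 of 840 (up to 0.357%), and cKO had 7 of 1786 (0.392%, 0.158 to 0.806%) and 33 of 1521 (2.17%, 1.5 to 3.03%). At 14 d, WT had 3 of 1014 (0.296%, 0.0611 to 0.862%) and 2 of 1305 (0.153%, 0.0186 to 0.553%), and cKO had 2 of 1135 (0.176%, 0.0213 to 0.635%) and 2 of 1495 (0.134%, 0.0162 to 0.482%). cKO 7 d replicate 2, WT uninjured replicate 2 and cKO 1 d replicate 2 together held 77 of the 119 cells (64.7%), and cKO 7 d replicate 2 alone gave 61.5% of the cluster's UMIs. Intervals and floors (3 counts for a count of 0) cover counting error only.

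**Figure D1:**
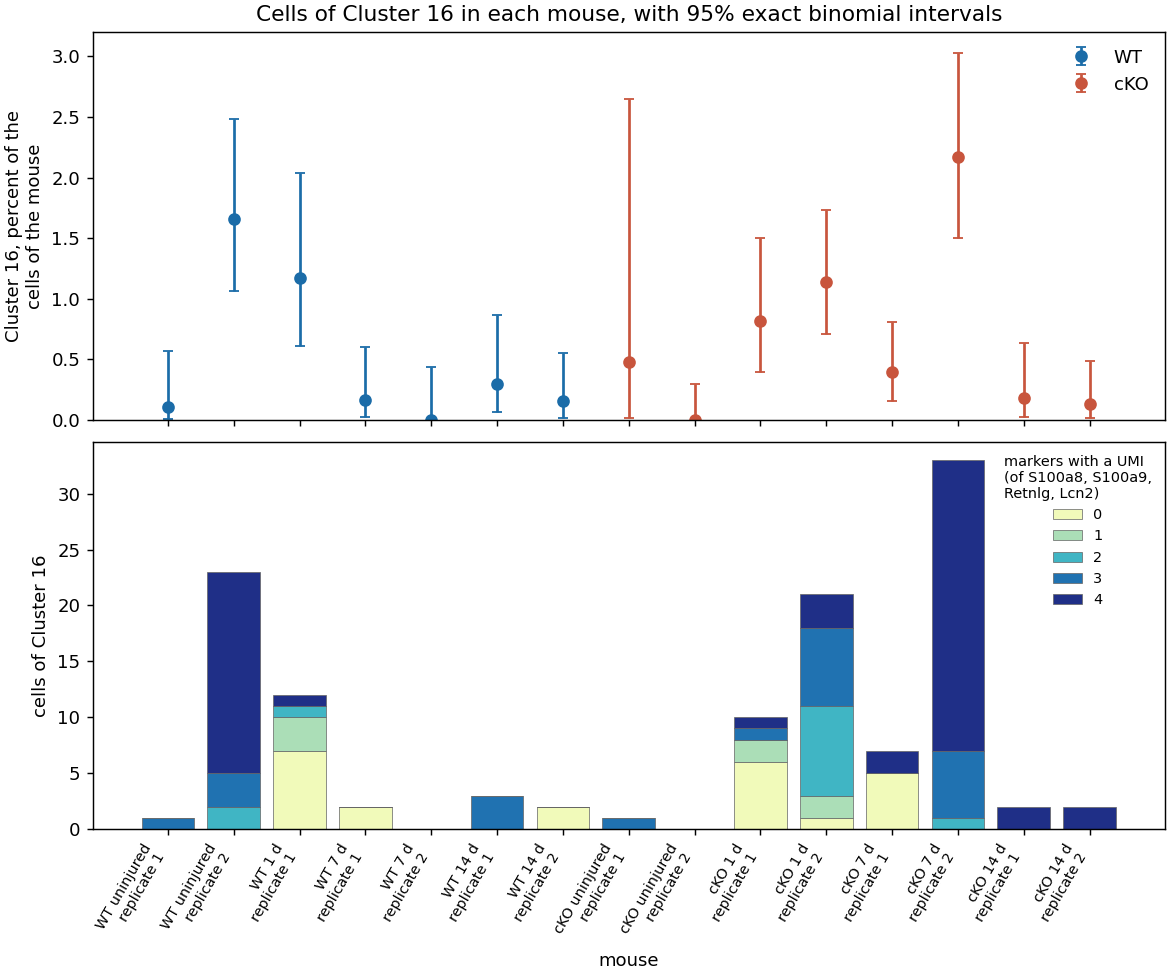
The upper panel gives the percent of cells in Cluster 16 for 15 mice with 95% exact binomial intervals (WT blue, cKO red), and the lower panel splits its cells by how many of S100a8, S100a9, Retnlg and Lcn2 had a UMI, from 0 (palest) to 4 (darkest). The highest share is 2.17% in cKO 7 d replicate 2, and cells with 0 markers lie mainly in WT 1 d replicate 1, cKO 1 d replicate 1 and cKO 7 d replicate 1.

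Beside the authors' annotation as myeloid cells, the cluster is given here a narrower label, neutrophil-like, with 4 markers. This narrower label, called the label below, was checked against them. S100a8 (ENSMUSG00000056054, chromosome 3 of mm10, 90668978 to 90670035, plus strand) had a UMI in 79.8% of the 119 cells (interval 71.5 to 86.6%) and stood at 77474 CPM (UMIs of the gene, scaled to a fixed total of UMIs for the cells summed). S100a9 (ENSMUSG00000056071, chromosome 3, 90692632 to 90695721, minus strand) had a UMI in 73.1% (64.2 to 80.8%), at 97017 CPM. Retnlg (ENSMUSG00000022651, chromosome 16, 48872621 to 48874496, plus strand) was found in 54.6% (45.2 to 63.8%) at 6619 CPM. The fourth marker, Lcn2 (ENSMUSG00000026822, chromosome 2, 32384633 to 32388252, minus strand), was found in 58.8% (49.4 to 67.8%) at 5864 CPM. In all cells outside the cluster, the same genes stood at 28.6, 33.8, 1.12 and 25.2 CPM. Together, S100a8 and S100a9 made up 17.4% of the cluster's UMIs and 0.00625% of those of all other cells, and 96.4% of all their UMIs in the series lay in the cluster, which holds 0.960% of all UMIs. At least 3 of the 4 markers were present in 77 cells (64.7%, 55.4 to 73.2%), against 12 of 18084 cells outside (0.0664%, 0.0343 to 0.116%). These values describe the cluster and carry no test, because it was made from them.

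Droplets also take up free RNA, so the same shares were read in oligodendrocytes (Clusters 4 and 8, 2660 cells, median 1066 UMIs), which should lack these genes. There, S100a8, S100a9, Retnlg and Lcn2 had a UMI in 2.41%, 3.27%, 0.301% and 1.5% of cells, while the median depth of Cluster 16 was 2212 UMIs (237 to 24787). After each cell was thinned to 500 UMIs, which left 103 of the 119 cells, the markers were present in 85.4%, 79.6%, 46.6% and 47.6% of Cluster 16 and in 1.25%, 1.68%, 0.129% and 0.601% of 2328 oligodendrocytes. The background was not the same in all mice. An oligodendrocyte with a UMI of any of the 4 markers made up 28.0% of oligodendrocytes in cKO 7 d replicate 2, 27.0% in cKO 1 d replicate 2 and 13.6% in WT uninjured replicate 2, and 0 to 5.81% in the other 12 mice. The 3 mice with the most Cluster 16 cells were thus also those with the most marker RNA in other cells.

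The neutrophil-like label did not hold equally for every cell. Of the 119 cells, 55 had all 4 markers, 22 had 3, 12 had 2, 7 had 1 and 23 had 0. In the 4 libraries that share barcodes, 20 of 31 cells had 0 markers and 5 had at least 3. In the other mice, 3 of 88 cells had 0 markers and 72 had at least 3. The cells with 0 markers were shallow, with a median of 491 UMIs against 4501 in cells with at least 3, and how far depth sets the count was not tested. In the 4 shallow libraries, the 5 cells with at least 3 markers had a median of 440 UMIs and the 25 with 0 or 1 had 491. The 23 cells with 0 markers carried the monocyte and macrophage list at 5279 CPM, led by Fn1 (fibronectin, 36 UMIs), against 823 CPM in cells with at least 3 markers. Fn1 stood at 2001 CPM in the former and 13 CPM in the latter, F13a1 (a coagulation factor subunit of monocytes) at 611 and 2.16 CPM, and Ccl2 (a monocyte chemoattractant) at 778 and 0 CPM. Ms4a7 and Mrc1, 2 macrophage markers of that list, were at 0 in the whole cluster. Lyz2, the lysozyme gene of all myeloid cells, was alike in both groups of cells, at 6391 and 5445 CPM. Other lists were higher in the cells with 0 markers too: neuron at 3390 against 77.7 CPM (mostly Meg3, 53 UMIs in 5 cells), endothelial at 1334 against 194, microglia at 556 against 104 and proliferation at 1445 against 225 CPM. The oligodendrocyte list was at 3723 against 2062 CPM, but 3 cells carried most of it. It made up 1.23 and 1.10% of UMIs in the cells of WT 14 d replicate 2 and 0.942% in 1 cell of cKO 1 d replicate 2. In the 25 cells with 0 or 1 marker of the 4 shallow libraries it was at 1206 CPM, below the cells with at least 3. Mitochondrial mt-Nd1 was at 3390 against 257 CPM. Fn1, F13a1, Ccl2, Lyz2, Meg3 and mt-Nd1 were singled out after their values were seen. By at least 3 of the markers, each counted from 1 UMI on, 77 of the 119 cells have the RNA of the neutrophil-like label. Some of them held little calprotectin RNA. In cKO 7 d replicate 2, a cell with 1017 UMIs had 0.492% from S100a8 and S100a9 and 2.06% from the oligodendrocyte list. A cell of cKO 1 d replicate 2 with 2240 UMIs had 0.491% from S100a8 and S100a9. How far free RNA adds to counts of at least 3 markers was not tested. A single marker can be free RNA, and in the 4 shallow libraries the 25 cells with 0 or 1 marker had the marker list at 301 CPM and the monocyte and macrophage list at 7234 CPM.

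The 20 genes with the largest fold over all other cells, with 50 CPM added to both sides, were S100a9, S100a8, Ngp, Camp, Retnlg, Ltf, Lcn2, Wfdc21, Mmp8, Il1b, Mmp9, Hdc, Il1r2, Chil3, S100a11, Anxa1, Ifitm6, Cxcl2, Mxd1 and Hp. Of these, 16 are in the lists, which were chosen with earlier results known, and 4 of the 16 are the label's own markers. The median log2 fold over the 3986 genes with a UMI in 10% or more of its cells was 0.13, and 62 genes were at least 10-fold higher than outside. Among the listed genes, calprotectin led in each mouse with at least 5 Cluster 16 cells (6 mice, 106 cells). S100a9 stood at 118284 CPM in WT uninjured replicate 2, 33404 in WT 1 d replicate 1, 21488 and 57319 in cKO 1 d replicates 1 and 2, and 17907 and 98901 in cKO 7 d replicates 1 and 2. S100a8 followed it, at 104134, 22433, 20404, 53633, 15769 and 73140 CPM in the same order. In cKO 1 d replicate 2 the level comes from few cells: S100a8 and S100a9 made up 28.3, 34.8 and 38.1% of the UMIs in 3 of its 21 cells and under 5% in 16 (median 2.21%), whereas the medians were 23.1% in WT uninjured replicate 2 and 14.6% in cKO 7 d replicate 2. The 3 libraries with the lowest levels are those of replicate 1 that share barcodes and hold cells without markers. Among the other S100 and protease inhibitor genes, S100a6 was at 3972 CPM, Wfdc21 at 3456 CPM and S100a11 at 3276 CPM over the whole cluster. Stfa3 was at 0, Stfa1 was found in 3.36% of cells and Stfa2l1 in 14.3%; the stefin genes are near copies of each other, so reads may be split among them.

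Genes of the granules were present by stage. The primary granule list was at 35.1 CPM against 18.2 CPM outside: Mpo (myeloperoxidase) had 0 UMIs, which allows up to 5.86 CPM, and Elane, Prtn3, Ctsg and Ms4a3 had 6, 8, 1 and 3 UMIs, of which 4 of Elane and 7 of Prtn3 were in cKO 7 d replicate 1, and 13 of all 18 were in cells with 0 markers (722 against 8.64 CPM in cells with at least 3). The secondary granule list was at 41169 CPM in the cluster and 74.4 CPM outside, with all 10 genes higher in the cluster. Its leading genes were Ngp (neutrophilic granule protein; 17054 CPM, 39.5% of cells), Camp (the cathelicidin antimicrobial peptide; 8668 CPM, 34.5%) and Ltf (lactoferrin, which binds iron; 6168 CPM, 31.1%), each in fewer than 1% of cells outside. All 6 genes of the tertiary granule list were higher as well (13254 against 149 CPM), among them the matrix metalloproteinases Mmp8 (2298 CPM) and Mmp9 (1843 CPM), Hp (haptoglobin, 1052 CPM) and Pglyrp1 (a peptidoglycan-binding protein, 1045 CPM). These lists hold 2 of the 4 markers: Retnlg gave 6619 CPM of the tertiary sum and Lcn2 5864 CPM of the secondary sum.

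The receptor list had all 18 genes present and higher than outside, at 10618 against 486 CPM. Csf3r, the receptor of the granulocyte growth factor G-CSF, was at 1261 CPM in 63.9% of cells, Cxcr2, the receptor for the chemokines that draw neutrophils into tissue, at 867 CPM in 58.8%, and Il1r2, a decoy receptor of interleukin-1, at 1423 CPM in 52.9%. Cxcr4, which holds granulocytes in the marrow and marks aged cells, was low at 80.1 CPM. Ly6g, whose protein is the usual surface marker of mouse neutrophils, was at 469 CPM in 37.8% of cells and at 0.132 CPM outside. The formyl peptide receptors Fpr1 and Fpr2 stood at 363 and 392 CPM. The complement receptor C5ar1 was at 562 CPM. Transcripts for all 6 subunits of the phagocyte oxidase list were higher too (5417 against 349 CPM), led by its catalytic subunit Cybb at 1468 CPM, then Ncf1 at 1070 CPM and Cyba at 1035 CPM.

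The cytokine list was at 6342 CPM in the cluster and 433 CPM outside, with 13 of 14 genes higher and Il1a at 0. Il1b (interleukin-1β) gave 2431 CPM in 42.0% of cells, Cxcl2 (a ligand of Cxcr2) 1160 CPM in 33.6%, Ccl6 771 CPM, and Ptgs2 (the inducible cyclooxygenase) 402 CPM. Il1b stood at 344 CPM in WT uninjured replicate 2, 491 in WT 1 d replicate 1, 722 and 2666 in cKO 1 d replicates 1 and 2, and 3165 in cKO 7 d replicate 2; cKO 7 d replicate 1 had 1 UMI. The values of replicate 1 in these 6 mice rest on 1 to 4 UMIs each. WT 14 d replicate 1, with 3 cells, had 2224 CPM from 37 UMIs, so high values occurred in both genotypes. Of the granulocyte transcription factors, Junb (1900 CPM), Cebpb (721 CPM), Spi1 (PU.1, 556 CPM) and Cebpe (the C/EBP factor of secondary granule formation, 176 CPM against 0.151 CPM outside) were higher in the cluster, whereas Gfi1 had 1 UMI. Interferon response genes were mixed: 8 of 12 were higher, led by Ifitm3 at 687 CPM, while Ifit1, Ifit2 and Ifit3 had 6, 1 and 2 UMIs. Proliferation genes summed to 283 CPM, against 520 CPM in other cells, and by mouse to 113 to 188 CPM in 4 mice, 1310 CPM in WT 1 d replicate 1 and 2673 CPM in cKO 7 d replicate 1. Of their 145 UMIs, 33 were Mki67 and Top2a UMIs of 1 cell with 13376 UMIs in WT 14 d replicate 1, in which Ngp, Camp and Ltf made up 11.7% of UMIs.

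**Figure D2:**
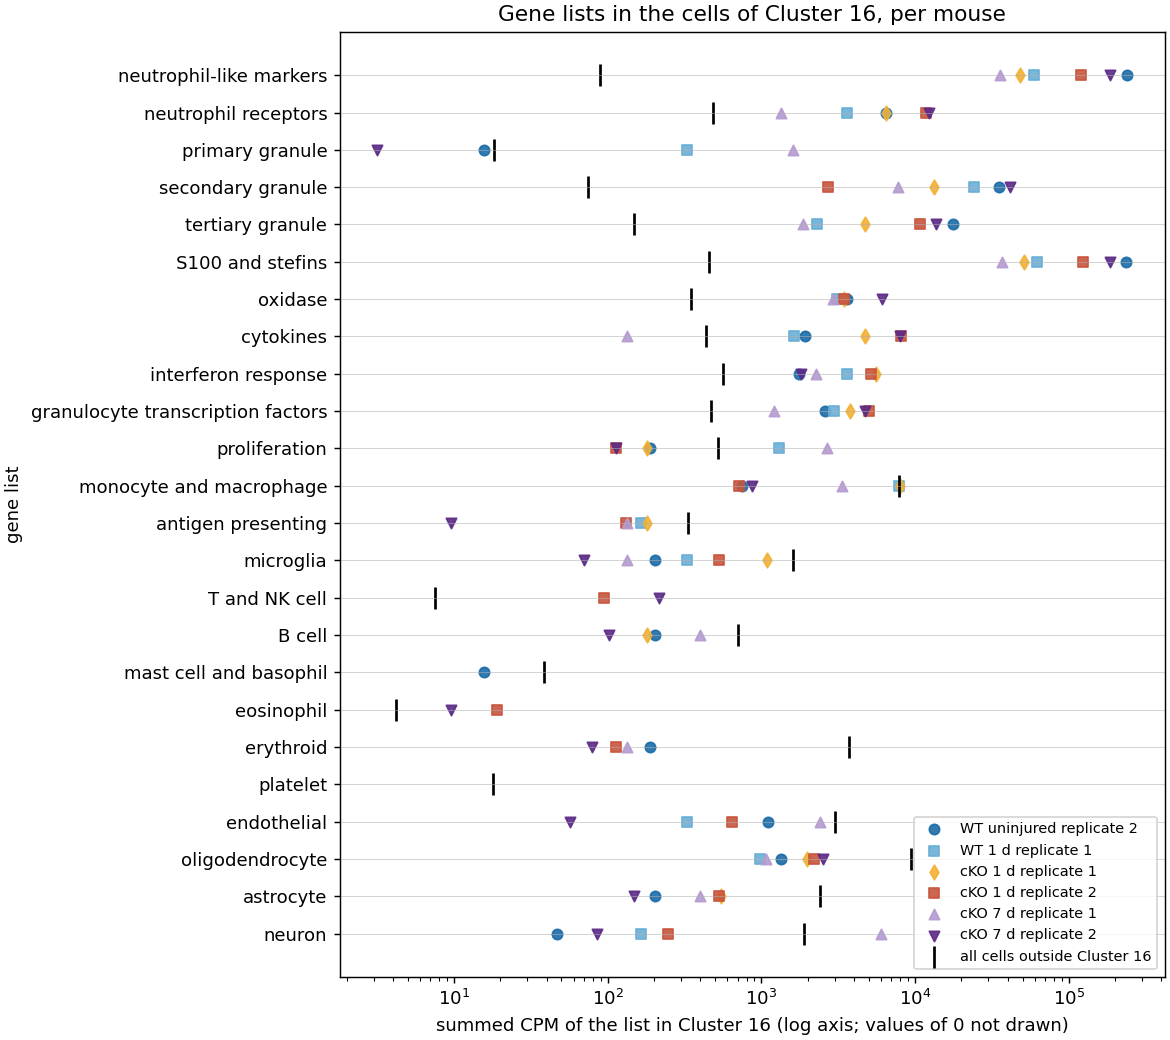
Each row is a gene list and each point its summed CPM in the Cluster 16 cells of 1 of the 6 mice with at least 5 such cells, on a log axis; bars mark all cells outside the cluster. The marker list lies between 35414 and 239477 CPM against 88.8 CPM outside, and the secondary granule list is lowest, at 2703 CPM, in cKO 1 d replicate 2.

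Most lists of other cell types were lower than in the rest of the tissue. The monocyte and macrophage list (11 of 13 genes with a UMI, most UMIs Ly6c2) summed to 1064 CPM against 7834 CPM outside. By mouse it was at 751 CPM in WT uninjured replicate 2, 7860 in WT 1 d replicate 1, 7945 and 718 in cKO 1 d replicates 1 and 2, and 3341 and 870 in cKO 7 d replicates 1 and 2. Replicate 1 of both genotypes at 1 d was thus about level with the rest of the tissue, and replicate 2 was not. The microglia list was at 162 CPM (3 of 6 genes, with Tmem119, Sall1 and Siglech at 0), and by mouse between 69.8 and 1083 CPM. The antigen presenting list had 13 UMIs, with H2-Ab1, H2-Eb1 and Xcr1 at 0, and 0 to 181 CPM by mouse. Of the T and NK cell list, Cd3e, Trac, Nkg7, Gzma and Klrb1c were at 0, whereas Cd3d had 78 UMIs in 23.5% of the cells; the list was at 160 CPM against 7.57 CPM outside, and at 216 CPM in cKO 7 d replicate 2, 94.5 CPM in cKO 1 d replicate 2 and 0 in the other 4 mice. The B cell list was at 97.6 CPM (3 of 6 genes, led by Ighm, with Cd79b, Ms4a1 and Igkc at 0), at 0 to 401 CPM by mouse.

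Other granulocytes and blood elements were near 0. The mast cell and basophil list had 1 UMI of Gata2, with Cpa3, Mcpt8, Ms4a2 and Fcer1a at 0, and the eosinophil list had 4 UMIs, with Epx and Prg2 at 0. None of the 4 platelet genes (Pf4, Ppbp, Itga2b and Gp9) had a UMI. Erythroid genes, led by Hbb-bs, were at 87.9 CPM against 3718 CPM outside, and 0 to 188 CPM by mouse. RNA of the tissue was present: the oligodendrocyte list was at 2167 CPM (5 of 5 genes, led by Mbp; 982 to 2514 CPM by mouse) against 9450 CPM outside, and Mbp had a UMI in 74.8% of the cells. The endothelial list was at 287 CPM against 3006 outside (5 of 5, led by Flt1; 0 to 2405 CPM by mouse), the astrocyte list at 189 against 2402 CPM (5 of 5, led by Slc1a2; 0 to 542 CPM) and the neuron list at 203 against 1897 CPM (5 of 5, led by Meg3; 0 to 6014 CPM). The highest endothelial and neuron values were those of cKO 7 d replicate 1, where the neuron list exceeded the rest of the tissue. The share of these UMIs that is free RNA was not tested. Ryk itself (ENSMUSG00000032547) had 2 UMIs in 2 cells of the cluster, and because a 3′ read need not come from the exons that were removed, it checks no label here.

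Within the cluster, cells differed in their secondary granule genes, as well as in the markers. Ngp, Camp and Ltf, chosen for this after their values were seen, made up at least 1.00% of the UMIs in 34 cells and less than 0.100% in 78, with 7 cells between, so that few cells lay near the limits. They had 0 UMIs in 7 of 23 cells of WT uninjured replicate 2, 20 of 21 cells of cKO 1 d replicate 2 and 13 of 33 cells of cKO 7 d replicate 2. After thinning to 500 UMIs these shares were 39.1%, 95.2% and 48.5%. Most of these cells had the label's markers: at least 3 of them were present in 5 of the 7, 9 of the 20 and 13 of the 13 cells. Cells with and without granule transcripts thus stood side by side in the uninjured WT mouse and in the cKO mouse at 7 d, while the cKO mouse at 1 d had almost none with them. In that mouse calprotectin was low as well, with 16 of 21 cells under 5% of UMIs, against 4 of 23 and 3 of 33 in the other 2.

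The granule genes ran opposite to the cytokine genes across cells. In cKO 7 d replicate 2, Spearman's rho between the percent of UMIs from Ngp, Camp and Ltf and that from the cytokine list was −0.77 over 33 cells, and in WT uninjured replicate 2 it was −0.78 over 23 cells. With the receptor list, rho was −0.77 and −0.57, and with the oxidase list 0.80 and 0.20, in the same mice. The cells of a mouse share a library, and depth rose with the granule share in the first mouse (rho 0.63 with the UMIs of the cell) and not in the second (0.07). Neither the proliferation list (0.04 and −0.04) nor the tertiary granule list (0.05 and −0.16) followed the granule share. In cKO 1 d replicate 2, with 1 cell that had any of the 3 genes, the relation cannot be read.

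**Figure D3:**
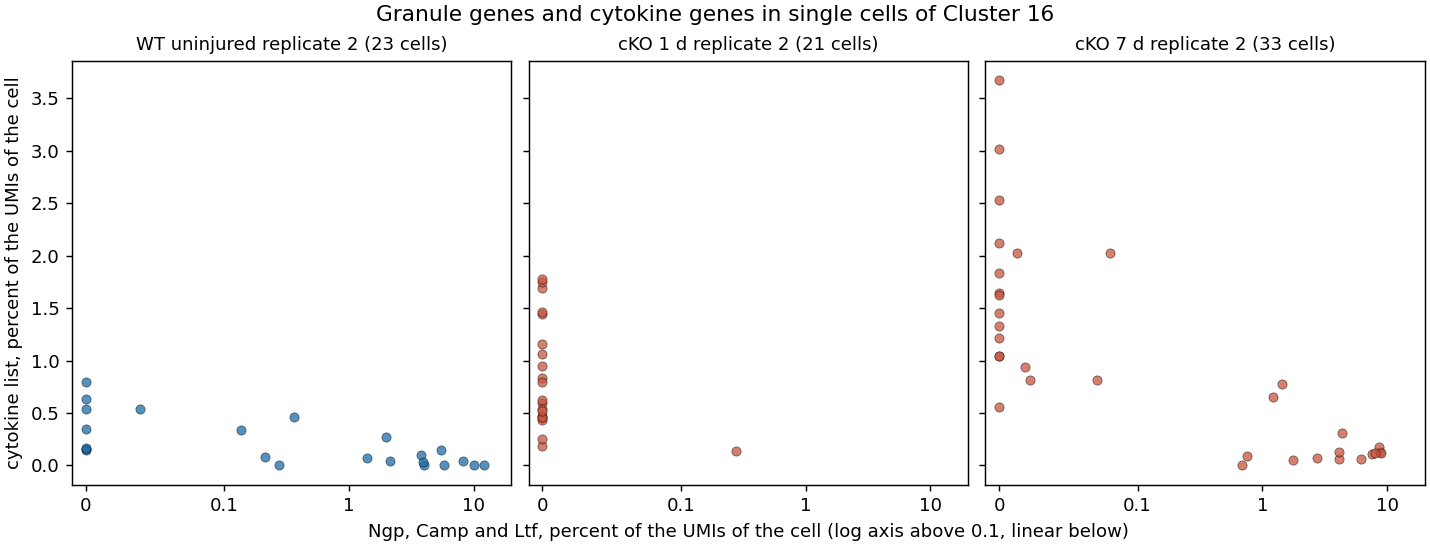
Each point is a cell of Cluster 16 in 1 of the 3 mice with the most such cells, by the percent of its UMIs from Ngp, Camp and Ltf (log axis above 0.1, linear below) and from the cytokine list. Cells with at least 1.00% granule UMIs lie low on the cytokine axis in WT uninjured replicate 2 and cKO 7 d replicate 2, and 20 of 21 cells of cKO 1 d replicate 2 lie at 0 on the granule axis.

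Genes that moved with this axis were read in cKO 7 d replicate 2, with 100 CPM added. Its 13 cells at or over 1.00% (median 12575 UMIs) were set against its 18 cells under 0.100% (median 7382 UMIs). These groups are called cells with and without granule transcripts, although only 13 of the 18 had 0 UMIs of Ngp, Camp and Ltf. The 15 genes that were highest with the granule genes were Chil3, Syne1, Cybb, Abca13, Fmnl2, Ly6a2, Adpgk, Dach1, Anxa1, Cd177, Thbs1, Lcn2, Pde4d, Itgb2l and Ifitm6. Chil3 (a chitinase-like protein) was at 1882 CPM in cells with granule transcripts and 0 in those without, Cybb at 3027 and 152 CPM, Anxa1 (annexin A1, which limits neutrophil migration) at 2812 and 373 CPM, and Cd177 (a neutrophil surface glycoprotein) at 1447 and 152 CPM. The 15 genes that were highest without them were Il1b, Egr1, Ccl6, Ptgs2, Gab2, Nlrp3, Gm26870, Pla2g7, Cxcl2, Stfa2l1, Wfdc17, Gm5150, Junb, Dusp1 and Entpd1. Il1b was at 264 CPM with and 7230 CPM without granule transcripts, Nlrp3 (a sensor of the inflammasome, which activates interleukin-1β) at 132 and 1844 CPM, Cxcl2 at 336 and 3269 CPM, and the immediate early factor Egr1 at 44.0 and 1737 CPM.

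The same 30 genes were then read in WT uninjured replicate 2, whose cells took no part in choosing them, between 11 cells with and 8 cells without granule transcripts. Of the first 15 genes, 15 were higher with the granule genes there too, with a median log2 difference of 2.47 (2.71 in cKO 7 d replicate 2), and of the second 15 genes, 15 were lower, with a median of −1.87 (−2.99). Over all 2416 genes with at least 20 UMIs in the split cells, the median in the uninjured mouse was −0.17, and 37.9% were higher. Some values in it rest on few UMIs: Ptgs2 had 1, Egr1 and Cxcl2 3 each. Chil3 was at 2381 and 0 CPM, Lcn2 at 8960 and 481 CPM, Il1b at 0 and 1010 CPM, and Ccl6 at 62.7 and 1587 CPM. These are 2 mice of different condition and, by the titles, of different genotype, and no test was made. By its cell names, WT uninjured replicate 2 is cKO uninjured, so both would be cKO. In cKO 1 d replicate 2 the 30 genes were mixed: Chil3, Abca13 and Itgb2l were at 0 CPM and Il1b and Cxcl2 at 2666 and 1380 CPM, but Fmnl2, Thbs1 and Pde4d, at 208, 284 and 340 CPM, lay above the cells without granule transcripts of cKO 7 d replicate 2, and Nlrp3, Egr1 and Ptgs2, at 246, 359 and 284 CPM, far below them.

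S100a8 and S100a9, which lie near each other and lead the listed genes in each of the 6 mice, and Ngp, Camp and Ltf, which mark the granule axis used above, are shown with their promoters. Each is the RefSeq sequence on GRCm38.p6 of 300 bases around the start of the gene, 5′ to 3′ on the gene's strand, and capitals mark matches to the TATA box TATAAA or to TTNNGNAA, the core of sites for C/EBP factors, searched on both strands. They lie at chr3:90668821-90669120, plus strand (S100a8), chr3:90695672-90695971, minus strand (S100a9), chr9:110419558-110419857, plus strand (Ngp), chr9:109849407-109849706, minus strand (Camp) and chr9:111019042-111019341, plus strand (Ltf).
S100a8: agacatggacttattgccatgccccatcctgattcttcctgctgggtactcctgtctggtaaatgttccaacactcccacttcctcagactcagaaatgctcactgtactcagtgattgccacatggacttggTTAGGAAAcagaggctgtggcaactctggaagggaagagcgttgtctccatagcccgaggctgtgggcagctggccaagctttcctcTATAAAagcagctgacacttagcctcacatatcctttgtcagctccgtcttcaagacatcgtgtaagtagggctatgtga
S100a9: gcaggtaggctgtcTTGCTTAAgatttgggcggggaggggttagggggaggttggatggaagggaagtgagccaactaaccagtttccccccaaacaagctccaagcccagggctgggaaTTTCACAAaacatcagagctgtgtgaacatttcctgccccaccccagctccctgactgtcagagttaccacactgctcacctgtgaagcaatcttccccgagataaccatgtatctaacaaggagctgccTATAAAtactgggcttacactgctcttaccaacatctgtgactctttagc
Ngp: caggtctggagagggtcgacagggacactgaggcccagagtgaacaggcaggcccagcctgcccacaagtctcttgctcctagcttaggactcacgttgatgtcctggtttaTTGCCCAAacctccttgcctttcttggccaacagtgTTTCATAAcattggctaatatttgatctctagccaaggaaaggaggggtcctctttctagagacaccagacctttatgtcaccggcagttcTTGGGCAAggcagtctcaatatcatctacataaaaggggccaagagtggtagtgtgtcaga
Camp: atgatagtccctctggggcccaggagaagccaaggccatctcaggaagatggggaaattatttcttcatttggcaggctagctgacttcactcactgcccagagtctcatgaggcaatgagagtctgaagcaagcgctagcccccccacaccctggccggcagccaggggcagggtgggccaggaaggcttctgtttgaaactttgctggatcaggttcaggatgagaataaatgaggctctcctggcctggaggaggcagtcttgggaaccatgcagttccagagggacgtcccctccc
Ltf: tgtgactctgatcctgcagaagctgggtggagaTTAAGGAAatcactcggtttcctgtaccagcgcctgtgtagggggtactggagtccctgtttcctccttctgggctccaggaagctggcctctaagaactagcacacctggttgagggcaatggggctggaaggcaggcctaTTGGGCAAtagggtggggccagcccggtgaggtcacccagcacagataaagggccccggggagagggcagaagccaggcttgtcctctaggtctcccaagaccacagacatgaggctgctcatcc
TATAAA was present once each in the promoters of S100a8 and S100a9 and in 14.2% of 27025 promoters, and it was not found in those of Ngp, Camp and Ltf. TTNNGNAA had 1 match in S100a8, 2 in S100a9, 3 in Ngp, 0 in Camp and 2 in Ltf, and it occurs in 40.7% of all promoters. These are matches of letters and not evidence of binding.

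The first comparison of conditions asks whether Cluster 16 takes a larger share of the tissue after injury. It did not differ detectably: the 11 injured mice had 0.601 ± 0.664% of their cells in the cluster (SD; lowest 0, median 0.296, highest 2.17%), and the 4 uninjured mice had 0.561 ± 0.762%. The uninjured mean rests on WT uninjured replicate 2 with 1.66%, and the 3 other uninjured mice had 0.194 ± 0.253%. The groups differed by 0.0401 percentage points (p = 0.922 by exact permutation over mice, two-sided; the smallest p possible is 7.33e-04). Without WT uninjured replicate 2 it was 0.407 percentage points (exact p = 0.341), and without the 4 libraries that share barcodes, a choice made after seeing the data, 0.0198 percentage points (exact p = 0.964). The red blood cell cluster was 1.23% of the cells in that mouse and 0.306%, 0.962% and 0.404% in the other uninjured mice; how much of Cluster 16 was blood left in the vessels was not tested. As a share of the immune classes (Clusters 6, 10, 12 and 16), Cluster 16 was at 5.18% after injury and 8.50% without it, a difference of −3.32 percentage points (exact p = 0.486).

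Among injured mice, Cluster 16 was at 1.04 ± 0.195% at 1 d (SD, n = 3) and at 0.436 ± 0.71% at 7 d and 14 d (SD, n = 8). The values were 1.17, 0.818 and 1.14% at 1 d, and 0 to 2.17% later, with a median of 0.171%. By the titles, each mouse at 1 d thus lay above 7 of the 8 later mice, and below cKO 7 d replicate 2. This order does not hold by the cell names, which put WT 7 d replicate 2 at 1 d. That mouse had 0 of 840 cells in Cluster 16 and so lay above no later mouse. With the cell names, the gap between the means narrowed to 0.346 percentage points. The difference of 0.606 percentage points did not pass (exact two-sided permutation test, p = 0.218, smallest possible 0.00606). It passed without cKO 7 d replicate 2 (0.854 percentage points, exact p = 0.00833, the smallest possible there) and among cells with at least 500 UMIs (0.831 percentage points, exact p = 0.0424).

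That difference depended on what counts as a member. Of the cells at 1 d, 13 of the 22 in the 2 mice of replicate 1 had 0 markers. By cells of any cluster with at least 3 of the 4 markers, the share was 0.412% at 1 d and 0.380% later, a difference of 0.0321 percentage points (exact p = 0.945). With Cluster 16 cells that had at least 1 marker, an alternative chosen after seeing the data, the shares were 0.633 and 0.361% (difference 0.272 percentage points, exact p = 0.673). Without the 4 libraries that share barcodes, also chosen after seeing the data, 1 mouse remains at 1 d, at 1.14% against 0.488% in 6 later mice (exact p = 0.429, smallest possible 0.143).

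The genotype comparison asks whether loss of Ryk in astrocytes goes with more or fewer of these cells after injury. cKO mice had 0.805 ± 0.773% (SD, n = 6; lowest 0.134, median 0.605, highest 2.17%) and WT mice 0.357 ± 0.467% (SD, n = 5; 1.17, 0.166, 0, 0.296 and 0.153%). By the titles, the WT mouse at 1 d lay above both cKO mice, at 7 d both cKO mice lay above both WT mice, and at 14 d the genotypes overlapped. The orders at 1 d and 7 d do not hold by the cell names. They put WT 7 d replicate 2 (0%) at 1 d, below both cKO mice. They also put cKO 14 d replicate 2 (0.134%) at 7 d, below WT 7 d replicate 1 (0.166%). Averaged over the time points, cKO exceeded WT by 0.312 percentage points, which did not pass (exact two-sided permutation of genotype within time points, p = 0.565, smallest possible 0.00926). Most of it came from cKO 7 d replicate 2: without that mouse the difference was 0.0155 percentage points (exact p = 0.926). By cells of any cluster with at least 3 markers it was 0.566 percentage points (0.647% against 0.0787%, exact p = 0.204). Without the 4 libraries that share barcodes it was 1.05 percentage points (exact p = 0.833, smallest possible 0.0833), at 7 d and 14 d alone.

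Expression over time was tested on UMIs summed per mouse over all cells of the cluster, in the injured mice with at least 5 of them: 3 mice at 1 d against the 2 cKO mice at 7 d, with genotype as a term. The only WT mouse is at 1 d, so with that term the time difference rests on 2 cKO mice at each time. edgeR's quasi-likelihood test called 0 of 187 genes (0%) at a Benjamini-Hochberg adjusted p under 0.05, with 5 genes at an unadjusted p under 0.05. By DESeq2 there were 0, with 11 at an unadjusted p under 0.05. Genes with the smallest p that were higher at 1 d included Spp1, Ctss, Ccl2 and Cstb. Spp1 (osteopontin) was at 8848 and 37.8 CPM in cKO 1 d replicates 1 and 2, 1310 CPM in WT 1 d replicate 1, and 0 and 6.35 CPM in cKO 7 d. Ccl2 was at 3250, 0, 1146, 0 and 0 CPM in the same order. High values of these 2 genes were thus in replicate 1 at 1 d, whose cells mostly lacked the markers. Cstb differed, with 1806 and 1040 CPM in cKO 1 d replicates 1 and 2 and 655 CPM in WT 1 d replicate 1. Without cKO 1 d replicate 2, edgeR called 1 of 151 genes. The 5 genes with the smallest p that were lower at 1 d were Syne1, Ltf, Cybb, Meg3 and Ly6c2.

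Because the cells without markers differ so much, the test was repeated on the cells with at least 1 marker, in injured mice with at least 2 such cells, a choice made after seeing the data. At 1 d it held 4 and 20 cells of cKO replicates 1 and 2 and 5 of WT replicate 1, and later 2 and 33 of cKO 7 d, 3 of WT 14 d replicate 1 and 2 each of cKO 14 d. edgeR called 26 of 384 genes (6.77%), 11 higher and 15 lower at 1 d, with 78 genes at an unadjusted p under 0.05; DESeq2 called 33, of which 21 were among the 26. With the replicate number as a block it called 34, which include the 26. With each mouse left out in turn, 5 to 26 genes were called. The lowest count, without cKO 14 d replicate 2, held Fn1, Adpgk, Cstb, Ctsb and Basp1. Beside that mouse, leaving out cKO 1 d replicate 1 (15 genes), cKO 7 d replicate 2 (17) or cKO 14 d replicate 1 (17) moved the count by more than 1.5 times, and the genes called were not always the same: 8 of the 26 called without cKO 1 d replicate 2 and 7 of the 18 called without WT 14 d replicate 1 were among those of all mice.

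The secondary granule genes Ngp, Ltf and Camp were lower at 1 d in these sums, while Chil3 and Lcn2 of the same list were not called, and Chil3 was higher in 2 of the 3 mice at 1 d (8101 CPM in cKO and 6723 CPM in WT replicate 1) than in any later mouse (1098 to 5169 CPM). At least 3 markers were present in 2 of 4 and 10 of 20 of the summed cells of cKO 1 d replicates 1 and 2 and in 1 of 5 of WT 1 d replicate 1, but in all cells of the later mice except 1 of 33 in cKO 7 d replicate 2. In replicate 1 at 1 d, the cell with 4 markers had 9.03% of its UMIs from Ngp, Camp and Ltf in WT and 5.98% in cKO, but a cKO cell with 3 markers had 0 UMIs of them, as had 9 of the 10 cells with at least 3 markers in cKO 1 d replicate 2. A fall within cells of 1 type therefore cannot be told apart from more summed cells without the label at 1 d. Ngp stood at 9001 and 174 CPM in cKO 1 d replicates 1 and 2 and 9939 CPM in WT 1 d replicate 1, against 15544 and 17940 CPM in cKO 7 d, 44955 CPM in WT 14 d replicate 1, and 39954 and 34564 CPM in cKO 14 d replicates 1 and 2. Each mouse at 1 d was below each later mouse, but single cells carry some later values: in WT 14 d replicate 1, 2 of 3 cells had 0 UMIs of Ngp, Camp and Ltf, and in cKO 14 d replicate 2, 1 of 2 cells had 0.0193% of its UMIs from them. edgeR gave a log2 difference of −3.45 (standard error 1.00, adjusted p = 0.0275). Ltf was at 900, 77.2 and 1754 CPM at 1 d and at 2591, 6919, 10698, 14334 and 10245 CPM later, in the same order, again without overlap (log2 −4.87, standard error 1.22, adjusted p = 0.0144), though the value of cKO 7 d replicate 1 is 2 UMIs. Camp was at 3600, 57.9 and 14031 CPM against 18135, 7094, 38764, 20049 and 11371 CPM, with overlap (log2 −3.47, standard error 1.07, adjusted p = 0.0411). With each of the 8 mice left out in turn, Ngp was called in 3 fits, Ltf in 5 and Camp in 1, and the log2 differences stayed below 0, between −5.33 and −2.50 for Ngp, −5.57 and −3.68 for Ltf, and −5.05 and −2.36 for Camp. The uninjured WT mouse with 23 Cluster 16 cells, which the test did not use, had 10961, 4534 and 11539 CPM of Ngp, Ltf and Camp over all of them.

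Over all 384 genes the median log2 difference was −0.11. In simulated data with many genes changed, unchanged genes were called too often and nearly always as lower. Those data were made for the time test over all cells of the cluster in mice with at least 5 of them, not for these sums. If many genes changed here and the same holds, neither of which was tested, calls of lower genes are the less safe ones. Other genes lower at 1 d included Syne1 and Adpgk. Both moved with the granule genes across the cells of cKO 7 d replicate 2. That mouse is 1 of the 5 later mice of this fit, so the readings share cells and are not independent. Adpgk (ADP-dependent glucokinase) had 0, 2 and 0 UMIs at 1 d, in cKO replicates 1 and 2 and WT, and was at 180 to 1182 CPM in 4 of the 5 later mice (adjusted p = 0.00701, called in 5 of 8 fits with a mouse left out). Ckap4, Cpne3, Cpa6, G6pdx (the first enzyme of the pentose phosphate pathway) and F730016J06Rik complete the 10 with the largest fall; G6pdx and F730016J06Rik had 0 UMIs at 1 d and no fold is given. Among these 10, the 1 d and later mice overlapped for all but Ngp and Ltf. The share of all 384 genes without such overlap was not counted, so these separations are given as values only.

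The 10 called genes with the largest rise at 1 d were Fn1, Basp1, Cstb, Ctss, Ctsb, Wfdc17, Ifitm1, Hsp90b1, Tgfbi and Rps2. The 1 d and later mice overlapped for Basp1, Wfdc17 and Ifitm1. Here too, the share of all tested genes without overlap was not counted. With each of the 8 mice left out in turn, Fn1 was called in 7 of the 7 fits that tested it, Basp1 and Cstb in 6 of 6, Ctsb in 6 of 7, Wfdc17 and Ifitm1 in 4 of 6, Tgfbi in 3 of 4, Ctss in 2 of 3, Hsp90b1 in 3 of 7 and Rps2 in 1 of 7. Fn1 was at 5401 and 77.2 CPM in cKO 1 d replicates 1 and 2, 2631 CPM in WT 1 d replicate 1, 12.7 CPM in cKO 7 d replicate 2 and 0 in the 4 other later mice (adjusted p = 2.00e-04). Cstb (cystatin B, an inhibitor of lysosomal cathepsins) was at 2700, 1042 and 292 CPM at 1 d and at 0 to 66.7 CPM later (log2 4.14, standard error 0.77, adjusted p = 5.73e-04), and Ctsb (cathepsin B) at 3150, 887 and 585 CPM and at 0 to 238 CPM (log2 3.47, standard error 0.74, adjusted p = 0.00342). Wfdc17, at 1563 CPM from 81 UMIs in cKO 1 d replicate 2, was also among the genes that were higher without granule transcripts in cKO 7 d replicate 2, where it was at 257 CPM. In WT 1 d replicate 1 it had 0 UMIs. Several 1 d values rest on few UMIs, such as 12, 4 and 9 UMIs of Fn1, and 1 UMI of Cstb in WT. In cKO 7 d replicate 1, 1 UMI stands for 1295 CPM. A value of 0 there does not show that Fn1, Cstb or Ctsb lay below each value at 1 d. Fn1, Ctss and Rps2 were also higher in the cells with 0 markers than in those with at least 3, and how far cells of another type with 1 marker UMI enter these sums was not tested.

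Expression by genotype had 1 WT mouse with at least 5 cells after injury, so it was tested in mice with at least 3 cells, 4 cKO against 2 WT, with 1 d against later as a term. edgeR called 0 of 216 genes (0%), with 2 at an unadjusted p under 0.05 (Wfdc17 and Camp), and DESeq2 called 0, with 3. Camp was at 7860 and 38764 CPM in WT 1 d replicate 1 and WT 14 d replicate 1, and at 1445, 56.7, 1871 and 7094 CPM in cKO 1 d replicates 1 and 2 and cKO 7 d replicates 1 and 2. Both WT mice were thus above these 4 cKO mice, but at an adjusted p of 0.984 by edgeR's quasi-likelihood test. cKO 14 d replicates 1 and 2, with too few cells for this test, had 20049 and 11371 CPM, above WT 1 d replicate 1.

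In the cells with at least 1 marker (6 cKO against 2 WT mice, chosen after seeing the data), edgeR called 8 of 384 genes (2.08%), all lower in cKO, with 58 at an unadjusted p under 0.05. By DESeq2 there were 8, of which 7 were among them. They include the broadly expressed genes Ptma, Ppia, Rpl32, Arl6ip1, Smdt1, H2afz and Rpl13. Ptma (prothymosin alpha) was at 2923 and 1322 CPM in WT 1 d and WT 14 d replicate 1 and at 0 to 900 CPM in the cKO mice (log2 −4.40, standard error 0.72, adjusted p = 1.50e-04). The simulated data were made for the time test alone. How safe calls of lower genes are by genotype was not tested. The median log2 difference over the 384 genes was 0.23. The count fell to 1 gene (Ptma) with the replicate number as a block. Without WT 14 d replicate 1 it was 0, without cKO 7 d replicate 1 4, without cKO 7 d replicate 2 2, without cKO 14 d replicate 2 3, and without cKO 1 d replicate 2 15. In WT 14 d replicate 1, 13376 of the 16639 UMIs came from the 1 cell with Mki67 and Top2a UMIs, and in WT 1 d replicate 1 the sum is of 5 shallow cells; the part of either in the 8 calls was not tested.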

How the data were processed

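Reads of 16 libraries, 1 per mouse, had been aligned to mm10 (GRCm38) with Cell Ranger, and the authors joined the cells with R 4.1.2 and Seurat. The deposited counts are raw UMIs of 18203 cells over 55487 gene symbols, after the authors' filters on genes and mitochondrial RNA, and the lowest gene number of a deposited cell is 201. The deposited cell table gives the number of UMIs, the percent of mitochondrial UMIs, the batch and the cluster of each cell; its number of counts equals the summed counts in all 18203 cells. Gene positions are from GENCODE on the same build by symbol, and promoters from RefSeq, where each of the 5 genes had 1 start.

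UMIs of Cluster 16 were summed per mouse. The tool was edgeR 4.0.16 in R 4.3.3 (its quasi-likelihood F test after filterByExpr and TMM factors; Benjamini-Hochberg adjusted p under 0.05), with DESeq2 1.42.0 as an alternative. edgeR's standard errors are the log2 difference over the square root of F. The edgeR fit was tested on simulated data. With no gene or few genes changed, calls of unchanged genes were rare. With a large part of the tested genes changed, more calls were of unchanged genes than the threshold allows, nearly all of them in the lower direction, and the median fold of unchanged genes lay below 0; the cause was not tested. Shares were compared in mice with at least 50 cells by exact two-sided permutation over mice. CPM are UMIs of a gene over all UMIs of the cells summed, scaled to a fixed total, without further normalization. Python 3.11.15, numpy 2.4.6, pandas 2.3.3, scipy 1.17.1 and matplotlib 3.10.9 were used for the rest.

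Members, markers and the 24 gene lists (178 genes) were chosen with earlier results of these data known. Genes named are the 4 markers; the 20 with the largest fold over other cells among genes in at least 10% of the cells; members of each list with at least 20 UMIs, or defining members at 0; and for each test up to 10 called genes in each direction by size of fold, or where a direction has none, the 5 with the smallest p. Genes outside this rule are said to be chosen after their values were seen. The alternatives were other denominators, filters, members, tools, conditions by cell name, the replicate block and each mouse left out in turn.

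Batch and replicate number coincide for all 16 mice in the deposited table, so mice of different conditions are paired through it. The deviations of replicate 1 from the group means in cKO 1 d and cKO 7 d, the 2 conditions with enough cells, correlated at 0.66 over 24 genes, which are not independent.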

Additional observations from a re-analysis of the deposited data

Results flagged for a closer look

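Within groups of 4 to 6 mice, 20 sets of values were searched for a mouse far from the others. Its gap to the next mouse, over the range of the group, was set against a critical value. The nominal rate of about 1 in 20 marked by chance assumes independent, normally distributed values. These sets share mice and related measures, and some hold values of 0, so that rate need not apply. WT 1 d replicate 1 stood apart from the other injured WT mice, with 1.17% of its cells in Cluster 16 against 0.296% in the next, and with 6.78% of its immune cells against 1.74%. It is the only WT mouse at 1 d among them, so this cannot be told apart from the time point. Of its 12 cells in the cluster, 7 had 0 of the 4 markers. cKO 7 d replicate 2 stood apart at 7 d, with 23.6% of its immune cells in the cluster against 1.13% in the next mouse. In the same mouse, 28.0% of oligodendrocytes had a UMI of the markers against 1.13%. The cluster took 3.50% of its UMIs, against 1.15% in the next of the injured cKO mice. WT uninjured replicate 2 stood apart from the other uninjured mice, with 3.02% of its UMIs in the cluster against 0.118%.

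Cells outside Cluster 16 with at least 3 of the 4 markers, which no comparison of genes used, made up 0.0764% of cells after injury (11 of 14392) and 0.0262% in uninjured mice (1 of 3810). Of these 12 cells, 8 were in cKO 1 d replicate 2 and 2 in cKO 7 d replicate 2, 2 of the 3 mice with the most marker RNA in oligodendrocytes; the part of free RNA or of doublets in them was not tested.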

How the results depend on the processing

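The share after injury minus uninjured (0.0401 percentage points) stayed on the same side of the threshold in all 26 alternatives, but its sign turned in 11: −0.01 with no minimum of cells, −3.32 as a share of immune classes, −0.154 by at least 3 markers in any cluster, −0.197 with the conditions of the cell names, and −0.126 for cells of the cluster with at least 1 marker; with a mouse or a replicate left out it ranged from −0.147 to 0.407. The share at 1 d minus later (0.606) kept its sign in all 22 and passed in 2, at 0.831 among cells with at least 500 UMIs and without cKO 7 d replicate 2 (range with a mouse or a replicate left out 0.524 to 0.854). It was 0.346 with the conditions of the cell names, and also 0.346 with no minimum of cells. cKO minus WT (0.312) passed in 0 of 22 and turned in 1, without replicate 2 (range −0.0823 to 1.08). With the replicate block, exact p was 0.187 or higher for the 3 differences, and the block changed no other call of a planned comparison; in cells with at least 1 marker it took 26 genes over time to 34 and 8 genes by genotype to 1. Genes called over time (0) ranged from 0 to 1 with a mouse left out where both groups kept at least 2 mice. By genotype (0), they were 0 with any cKO mouse left out. In cells with at least 1 marker, in mice with at least 2 such cells, the counts were 26 and 8. Those fits changed both the cells and the mice, so the rise cannot be put down to either choice alone. The 64.7% of cells with at least 3 markers became 61.2% after thinning to 500 UMIs, and Lcn2 moved from 58.8% to 47.6%. Alternatives for genotype with at least 5 or 10 cells leave 1 WT mouse and were not run as such; the mice with at least 5 cells are those of the fit without WT 14 d replicate 1, which called 0. Where no value above shows the cause of a change, the cause was not tested. With 1 d in WT a single mouse and 6 mice with at least 5 cells, only large differences could be seen. Simulated data were made only for the time test over all cells of the cluster. There, calls of lower genes were the less safe ones when a large part of the genes changed. Whether this holds in cells with at least 1 marker, and whether so many changed here, was not tested. The genotype tests were not simulated.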
